A study of Homo sapiens with 6 samples.

Results

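The 10 human genes described here build and mature the centriole wall: *TUBD1*, *TUBE1*, *TEDC1*, *TEDC2*, *PPP1R35*, *CEP295*, *CCDC15*, *WDR90*, *POC1A* and *POC1B*. They were taken by gene name from a table of 58735 genes, and all 10 were found and measured in all 6 RNA-seq libraries. The libraries came from RPE-1, an immortalised human retinal pigment epithelial cell line. In this line Cetn2 carries a GFP tag and *PLK4*, the kinase that starts centriole duplication, sits under an rtTA-driven doxycycline-inducible promoter. Of the libraries, 3 came from cells given a SON siRNA (siSON) and 3 from cells given a scramble siRNA (siControl). Doxycycline at 1 µg/mL was given in both groups, so no library shows cells without it. The level of *PLK4* itself is not described here. Whether the line is 1 clone, and how long the cells were treated, are not given in the sources used here. Nor do the labels say whether the numbered libraries came from separate cultures, so p-values measure the spread between these libraries, which may be technical.

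Centrioles are small cylinders of microtubules, and in human cells their wall is made of microtubules joined in triplets. Delta tubulin (*TUBD1*) and epsilon tubulin (*TUBE1*) are the tubulin family members needed to form or keep the triplets, and the proteins TEDC1 and TEDC2 bind them in 1 complex. PPP1R35 and CEP295 act in centriole-to-centrosome conversion, the step by which a new centriole gains the ability to recruit pericentriolar material. POC1A, POC1B, WDR90 and CCDC15 are proteins of the inner scaffold, a lattice on the inner face of the wall that holds neighbouring triplets together. SON, found in nuclear speckles, helps to splice pre-mRNA, and the comparison asks how mRNA levels change when it is depleted.

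The siRNA target itself was at 297 ± 14.5 CPM in siControl (counts scaled to a common library size by edgeR's TMM method) against 67.6 ± 2.5 CPM after SON siRNA (SD, n = 3 each), or 22.8% of the control level. Library totals ran from 54572365 to 69764836 counts. The keratin and vimentin genes *KRT8*, *KRT18* and *VIM* were at 208 CPM or more in every library. *KRT18* was at 208 to 234 CPM in siControl and at 610.2 to 622 CPM in siSON (edgeR adjusted p 2.70e-09). *KRT8* was higher too (556 to 630 against 709 to 778 CPM, adjusted p 0.000273), and *VIM* was not called (adjusted p 0.0521). Among 8 markers of differentiated retinal pigment epithelium, *MITF*, *OTX2*, *BEST1* and *PMEL* exceeded 1 CPM in at least 1 library, whereas *TYR* was at 0 in all 6 libraries and *RPE65* did not exceed 0.258 CPM. The sum of these 8 was 51.9 to 53.7 CPM in siControl and 74.3 to 83.6 CPM in siSON, with *OTX2* higher (19.7 to 20.2 against 33.8 to 37.0 CPM, edgeR adjusted p 9.23e-07) and *PMEL* lower (2.04 to 2.12 against 0.172 to 0.252 CPM, adjusted p 3.72e-07). *MITF* (edgeR adjusted p 3.48e-05) and *BEST1* (adjusted p 0.00165) were higher too. *SERPINF1*, which did not exceed 0.912 CPM, was lower (adjusted p 0.00268). Summed over 6 markers of blood, endothelium, other epithelia and neural crest, the level was 2.48 to 3.38 CPM in siControl and 0.630 to 1.19 CPM in siSON. Most of it came from *PTPRC* (1.12 to 1.98 against 0.275 to 0.310 CPM, edgeR adjusted p 4.40e-05) and *PECAM1* (1.02 to 1.29 against 0.256 to 0.879 CPM, adjusted p 0.0190), both lower in siSON. *CDH5* and *EPCAM* did not exceed 0.161 CPM, and *CD3E* and *SOX10* were at 0. The part of these marker differences in the results was not tested. Replicate 1 of each group stood apart. Divided by its degrees of freedom, the chi-square between replicates was 18.3 to 26.1 for pairs that held it and 7.16 and 7.18 for the others.

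After SON knockdown 7 of the 10 genes fell, 1 rose and 2 did not pass the test. A gene was called changed when its Benjamini-Hochberg adjusted p in edgeR's quasi-likelihood test was under 0.05, the adjustment running over all 16591 genes tested. By that rule 71.7% of all genes tested were called, 36.5% lower and 35.2% higher (higher genes were 49.1% of calls, and 37.7% with scaling by library size alone), so the 8 of 10 called here lie near the background share. The falls were those of *CCDC15*, *TEDC2*, *PPP1R35*, *TEDC1*, *WDR90*, *POC1B* and *CEP295*, and for 5 of them the fall was more than 2-fold, a size of fall reached by 20.5% of all genes tested. *TUBD1* rose. The median log2 fold change (siSON over siControl) of the 10 genes was -0.79, beside -0.027 over all genes tested. The 6 libraries fell into groups that did not overlap for 8 of the 10 genes, as they did for 75.1% of all genes tested. Of these 8 genes 7 were lower and 1 higher, beside 38.2% lower and 36.9% higher of all genes tested. Per library the counts behind these values ran from 58 to 2913, and all 10 genes passed the filter on low counts. In bulk RNA fewer cells that express a gene and less RNA per cell cannot be told apart.

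**Figure D1:**
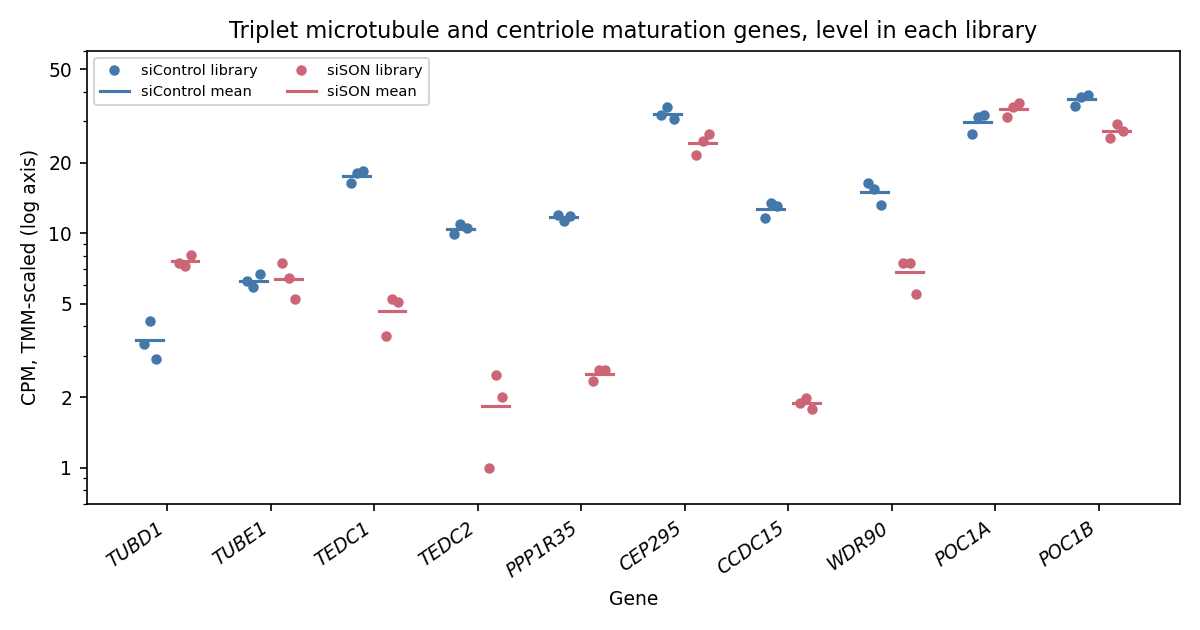
Level of each of the 10 genes in each library, in CPM on a log axis, for 3 siControl and 3 siSON libraries, with a horizontal bar at each group mean. The siSON libraries of CCDC15 (1.77 to 1.98 CPM) lie far below its siControl libraries (11.6 to 13.4 CPM), those of TUBD1 lie above, and those of TUBE1 and POC1A overlap with the controls.

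Because SON acts in splicing, the coding exon junctions at which introns are removed from these transcripts are shown for the genes with the largest differences. Each line gives the last 20 bases of an exon and the first 20 of the next, 5′ to 3′ on the gene's strand, from GENCODE release 29 (GRCh38). The last 3 bases before the junction and the first base after it are in capitals. For *PPP1R35* all 3 introns are given, and for the other genes the shortest intron with coding sequence on each side.
PPP1R35 intron 1: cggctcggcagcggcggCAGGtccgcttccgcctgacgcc
PPP1R35 intron 2: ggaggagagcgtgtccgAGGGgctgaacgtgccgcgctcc
PPP1R35 intron 3: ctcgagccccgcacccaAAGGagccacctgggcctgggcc
TEDC2 intron 7: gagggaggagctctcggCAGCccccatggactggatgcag
TEDC1 intron 1: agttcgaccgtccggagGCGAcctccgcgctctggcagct
WDR90 intron 16: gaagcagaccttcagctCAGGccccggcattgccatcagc
CCDC15 intron 7: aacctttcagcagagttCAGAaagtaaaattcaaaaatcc
TUBD1 intron 4: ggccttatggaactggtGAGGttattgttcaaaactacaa

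The introns at these junctions differ widely in length. The *PPP1R35* introns (chr7:100436065-100436140, chr7:100435768-100435847 and chr7:100435534-100435630, minus strand) are 76, 80 and 97 bases long. The *WDR90* intron (chr16:655704-655772, plus strand) has 69 bases, that of *TEDC1* (chr14:105491523-105491621, plus strand) 99, and that of *TEDC2* (chr16:2462527-2462630, plus strand) 104. In *CCDC15* the shortest such intron (chr11:124986889-124987126, plus strand) has 238 bases, and in *TUBD1* (chr17:59878335-59880893, minus strand) it has 2559. An exon ending in AG followed by an exon starting with G, the letters most common around human splice sites, was found on the transcript strand at 33 of the 143 junctions of the 10 genes (23.1%) and at 27.9% of the 140575 junctions of all protein-coding genes tested. By gene the count ran from 1 of 11 junctions in *POC1B* to 2 of 3 in *PPP1R35*, with 13 of 40 in *WDR90* and 3 of 8 in *TUBD1*.

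*TUBD1* (ENSG00000108423; GRCh38 chromosome 17, 59859482 to 59892945, minus strand, 9 exons) encodes delta tubulin. In the order of the replicates, the siControl libraries held 3.35, 4.22 and 2.92 CPM of it and the siSON libraries 7.44, 7.23 and 8.05 CPM. Every siSON library was above every siControl library. The group values were 3.50 ± 0.660 and 7.57 ± 0.422 CPM (SD, n = 3 each). The difference was 1.12 on the log2 scale (SE 0.14, edgeR adjusted p 3.15e-05). Of the 10 genes it was the least abundant in siControl and the single one that rose, and 93.0% of all genes tested had a lower log2 fold change. Of the 50-base windows of its annotated transcripts, 3.24% are also found in transcripts of other genes on the same strand and 2.73% on the opposite strand.

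*TUBE1* (ENSG00000074935; chromosome 6, 112070777 to 112087529, minus strand, 12 exons) encodes epsilon tubulin. It had 6.23, 5.90 and 6.67 CPM in siControl and 7.50, 6.44 and 5.25 CPM in siSON, in replicate order. The siSON libraries lay on both sides of the controls and spread more widely, with a coefficient of variation of 17.5% against 6.14%. The group values were 6.27 ± 0.384 and 6.40 ± 1.12 CPM (SD, n = 3 each). The log2 fold change of 0.031 was not called (95% interval -0.27 to 0.33, edgeR adjusted p 0.851). The sign is not fixed either, since it was -0.17 with scaling by library size alone and -0.087 without siSON replicate 1. A stretch of 193 exonic bases, 2.77% of the exonic bases of *TUBE1*, is shared with *WISP3* on the other strand.

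The balance between the tubulins was read within each library, where scaling does not enter. The ratio of *TUBD1* to *TUBE1* counts was 0.539, 0.715 and 0.438 in siControl and 0.993, 1.12 and 1.53 in siSON. Delta tubulin reads were thus the fewer in all siControl libraries. In siSON they were about as many in replicate 1 and the more in replicates 2 and 3. These are reads not divided by transcript length. Per kilobase of transcript *TUBD1* was below *TUBE1* in siSON replicates 1 (2.99 against 3.50 CPM) and 2 (2.905 against 3.005 CPM). In siSON replicate 3 it was above (3.23 against 2.45 CPM). On the log2 scale the ratio was higher in siSON by 1.11, a 2.16-fold difference, and the groups did not overlap (2-sided exact permutation test p = 0.1, and 0.1 adjusted over the 3 gene pairs compared). With 3 libraries against 3 that test cannot give a p below 0.1.

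*TEDC1* and *TEDC2*, whose products bind the delta and epsilon tubulins, both fell. *TEDC1* (ENSG00000185347; chromosome 14, 105489855 to 105499575, plus strand, 8 exons) was at 16.4, 18.1 and 18.4 CPM in siControl and at 3.64, 5.24 and 5.08 CPM in siSON. Every siSON library was far below the lowest control. The means were 17.6 ± 1.07 and 4.65 ± 0.881 CPM (SD, n = 3 each). On the log2 scale the difference was -1.93 (SE 0.13, edgeR adjusted p 2.03e-07). *TEDC1* shares 386 exonic bases, 5.76% of its exonic sequence, with AL928654.3 on the same strand.

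*TEDC2* (ENSG00000162062; chromosome 16, 2460080 to 2464963, plus strand, 10 exons) was at 9.95, 10.9 and 10.5 CPM in siControl and at 0.999, 2.48 and 2.01 CPM in siSON. Replicate 1 was the lowest of the siSON libraries, with 58 counts against 128 and 102, and the siSON coefficient of variation was 41.4%. The means were 10.5 ± 0.495 and 1.83 ± 0.757 CPM (SD, n = 3 each), so that 17.5% of the control level remained (log2 fold change -2.53, SE 0.24, edgeR adjusted p 4.53e-06). Without siSON replicate 1 the log2 fold change was -2.21.

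The ratio of *TEDC1* to *TEDC2* counts was 1.65, 1.65 and 1.75 in siControl and 3.62, 2.11 and 2.52 in siSON, so the groups did not overlap and siSON replicate 1 was the highest. The log2 ratio was 0.75 ± 0.049 in siControl and 1.42 ± 0.40 in siSON (SD, n = 3 each), a difference of 0.67 (2-sided exact permutation test p = 0.1, the smallest it can give, and 0.1 adjusted over 3 pairs). Without siSON replicate 1 the difference was 0.45.

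**Figure D2:**
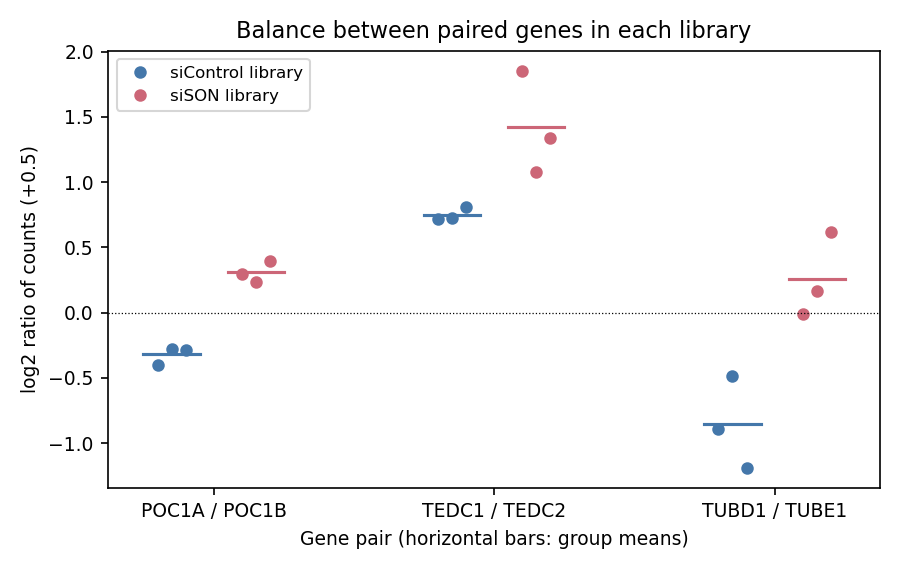
Log2 ratio of the counts of paired genes within each library (0.5 added to each count), for POC1A to POC1B, TEDC1 to TEDC2 and TUBD1 to TUBE1, with bars at the group means. With the pairs written in this order the siSON libraries lie above the siControl libraries in all 3, with mean differences of 0.63, 0.67 and 1.11. The order within a pair was a choice and sets the direction. How often the ratios of other gene pairs separate the groups was not computed.

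Of the genes for centriole-to-centrosome conversion, *PPP1R35* fell sharply and *CEP295* modestly. *PPP1R35* (ENSG00000160813; chromosome 7, 100435282 to 100436565, minus strand, 4 exons) encodes a regulatory subunit of protein phosphatase 1 that localises to the centriole. It had 11.9, 11.3 and 11.8 CPM in siControl and 2.34, 2.60 and 2.62 CPM in siSON. Both groups were tight, with a coefficient of variation of 3.04% in siControl and 6.06% in siSON, and lay far apart. The means were 11.7 ± 0.355 and 2.52 ± 0.153 CPM (SD, n = 3 each). The difference was -2.21 on the log2 scale (SE 0.11, edgeR adjusted p 1.64e-08). Its exons overlap those of AC092849.2 (25.9% of its exonic bases) and AC092849.1 (15.1%), both on the other strand, and whether counting used strand is not given in the sources used here, so the value carries that uncertainty.

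*CEP295* (ENSG00000166004; chromosome 11, 93661639 to 93730358, plus strand, 30 exons) encodes a centriole wall protein needed to recruit pericentriolar material. It had 31.8, 34.6 and 30.7 CPM in siControl and 21.5, 24.6 and 26.4 CPM in siSON. The groups did not overlap: the lowest control was at 30.7 CPM and the highest siSON library at 26.4 CPM. The means were 32.4 ± 2.03 and 24.2 ± 2.51 CPM (SD, n = 3 each). On the log2 scale the difference was -0.42 (SE 0.09, edgeR adjusted p 0.00118), and 74.6% of the control level remained. It shares 11.3% of its exonic bases with AP001273.1 and 2.63% with *TAF1D*, both on the other strand. Its value thus carries the same uncertainty over strand as that of *PPP1R35*.

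Of the inner scaffold genes *CCDC15*, *WDR90* and *POC1B* fell, and *POC1A* was not called. *CCDC15* (ENSG00000149548; chromosome 11, 124954121 to 125041489, plus strand, 16 exons) had the largest fall of the 10, from 11.6, 13.4 and 13.1 CPM in siControl to 1.90, 1.98 and 1.77 CPM in siSON. The siSON libraries were close to each other and kept 14.8% of the control mean. No gene on either strand overlaps it in the annotation. On the log2 scale it fell by 2.75 (SE 0.12, edgeR adjusted p 7.30e-09), and 4.0% of all genes tested had a lower one.

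*WDR90* (ENSG00000161996; chromosome 16, 649311 to 667833, plus strand, 41 exons) encodes a WD-repeat protein of the inner scaffold. It had 16.3, 15.4 and 13.2 CPM in siControl and 7.46, 7.43 and 5.53 CPM in siSON. In each group replicate 3 was the lowest, and the groups did not overlap. The means were 14.99 ± 1.59 and 6.81 ± 1.11 CPM (SD, n = 3 each). The difference was -1.14 on the log2 scale (SE 0.13, edgeR adjusted p 1.23e-05). AL022341.2, an antisense gene, covers 12.6% of its exonic bases, so the value carries the same uncertainty over strand as that of *PPP1R35*.

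*POC1A* (ENSG00000164087; chromosome 3, 52075253 to 52154690, minus strand, 11 exons) and *POC1B* (ENSG00000139323; chromosome 12, 89419718 to 89526024, minus strand, 12 exons) encode paralogous WD-repeat proteins of the centriole wall. *POC1B* fell, from 34.8, 38.0 and 39.0 CPM in siControl to 25.5, 29.3 and 27.3 CPM in siSON. The groups did not overlap, and on the log2 scale the difference was -0.45 (SE 0.08, edgeR adjusted p 0.000300), with 73.5% of the control level left. *POC1A* had 26.4, 31.4 and 32.0 CPM in siControl and 31.3, 34.5 and 35.9 CPM in siSON. The lowest siSON library lay inside the control range, and the log2 fold change was 0.18 (95% interval -0.016 to 0.38, edgeR adjusted p 0.0899). That result is close to the threshold: *POC1A* was called higher without siSON replicate 1 (0.25, adjusted p 0.0220), and its sign turned when library size was the only scaling (-0.018, adjusted p 0.873).

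The ratio of *POC1A* to *POC1B* counts was 0.758, 0.825 and 0.822 in siControl and 1.23, 1.18 and 1.31 in siSON, so *POC1B* had more reads in every control library and *POC1A* in every siSON library. These are reads not divided by transcript length, and per kilobase *POC1A* was above *POC1B* in both groups. The log2 ratio differed by 0.63, a 1.55-fold difference, with SDs of 0.069 and 0.080 (n = 3 each), with a p of 0.1 in the exact permutation test (2-sided, the smallest possible, and 0.1 adjusted over 3 pairs). No stretch of 50 bases is shared between the annotated transcripts of *POC1A* and those of any other gene. *POC1B* shares 2.92% of its 50-base windows with other genes on its strand, most of them with the read-through gene POC1B-GALNT4.

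For a comparison between genes, levels were divided by the length of each gene's representative transcript. The counts are per gene, and the annotated exons of a gene can be much longer than that transcript. In *TEDC1* they hold 6698 bases against 1630, and in *PPP1R35* 1187 against 1031. The order below therefore depends on the transcript chosen, and which transcripts were used in each group was not measured. In CPM per kilobase of the representative transcript, the siControl order was *POC1A* (15.8 ± 1.63), *POC1B* (12.4 ± 0.729), *PPP1R35* (11.3 ± 0.344), *TEDC1* (10.8 ± 0.658), *TEDC2* (6.30 ± 0.298), *CEP295* (4.02 ± 0.252), *CCDC15* (3.26 ± 0.248), *TUBE1* (2.93 ± 0.180), *WDR90* (2.73 ± 0.290) and *TUBD1* (1.40 ± 0.265; all SD, n = 3). Of these neighbours *PPP1R35* and *TEDC1*, *CCDC15* and *TUBE1*, and *TUBE1* and *WDR90* had overlapping libraries, and the other neighbours did not. In siSON the order of the same quantity was *POC1A* (17.9 ± 1.24), *POC1B* (9.12 ± 0.636), *TUBD1* (3.04 ± 0.170), *CEP295* (2.998 ± 0.311), *TUBE1* (2.99 ± 0.524), *TEDC1* (2.85 ± 0.541), *PPP1R35* (2.44 ± 0.148), *WDR90* (1.24 ± 0.202), *TEDC2* (1.10 ± 0.456) and *CCDC15* (0.483 ± 0.027). From *TUBD1* down to *PPP1R35* every neighbour overlapped with the next, as did *WDR90* and *TEDC2*. The span from the most to the least abundant gene was 11.2-fold in siControl and 37.0-fold in siSON. In siControl the TEDC genes stood above the tubulins that their products bind, and in siSON *TEDC2* was below both tubulins.

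The other genes of this part of centriole biology were taken from a list of 36 that covers the wall, the inner scaffold, conversion and the partners of the proteins above. All 36 were tested and 25 were called changed, 8 higher and 17 lower, which is 69.4% beside the 71.7% of all genes tested. Their median log2 fold change was -0.24. The largest falls on the list were those of *SFI1*, whose product binds centrins (-3.06, SE 0.13, edgeR adjusted p 8.25e-09), *CETN3*, which encodes centrin 3 (-1.92, SE 0.12, adjusted p 9.62e-08), and *PCNT*, which encodes pericentrin of the pericentriolar material (-1.90, SE 0.07, adjusted p 3.31e-09). *CEP97*, a cap protein of the distal end (0.77), *HYLS1* (0.58) and *PLK1*, the mitotic kinase that acts in conversion (0.57), had the largest rises, with edgeR adjusted p-values of 1.76e-05, 0.000969 and 0.000771.

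Among further inner scaffold genes, *FAM161A* fell from 11.0 ± 0.295 to 3.87 ± 0.375 CPM (SD, n = 3 each; difference -1.51 on the log2 scale, SE 0.11, edgeR adjusted p 2.76e-07), while *POC5* was at 14.0 ± 1.01 and 14.7 ± 1.06 CPM and was not called (0.069, adjusted p 0.520). *CETN2* had a log2 fold change of 0.38 (edgeR adjusted p 5.89e-05), which was -0.035 under cyclic loess normalization, and the table does not separate reads of the tagged copy from those of the native gene. Of the genes that act with CEP295 and PPP1R35, *CEP192*, the recruiter of pericentriolar material, fell from 49.6 ± 3.76 to 22.5 ± 2.83 CPM (SD, n = 3 each; difference -1.14 on the log2 scale, SE 0.10, edgeR adjusted p 1.03e-06). *RTTN*, which encodes rotatin, fell by 0.39 on the log2 scale (SE 0.09, edgeR adjusted p 0.00223), and *CEP44*, whose product binds the wall, fell by 0.81 (SE 0.11, adjusted p 6.01e-05). *CEP152* fell by 0.34 on the log2 scale (edgeR adjusted p 0.0182), but the call was lost under cyclic loess normalization (-0.23, adjusted p 0.0862) and without siControl replicate 2, siControl replicate 3 or siSON replicate 1 (adjusted p 0.0567, 0.0677 and 0.0607).

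*CENPJ*, which encodes the elongation factor CPAP, rose from 35.2 ± 4.34 to 51.3 ± 6.93 CPM (SD, n = 3 each; difference 0.54 on the log2 scale, SE 0.11, edgeR adjusted p 0.00123). *CEP135* (-0.092, adjusted p 0.528) and *CEP295NL*, a gene named after *CEP295* at 0.534 ± 0.219 CPM in siControl (-0.56, adjusted p 0.214), did not pass the edgeR test. The genes of the catalytic subunits of protein phosphatase 1, the enzyme that PPP1R35 regulates, were abundant. *PPP1CA* was at 145 ± 3.85 and 137.7 ± 3.89 CPM, *PPP1CB* at 122.5 ± 3.94 and 139.3 ± 1.97 CPM, and *PPP1CC* at 230.1 ± 11.8 and 241 ± 11.9 CPM in siControl and siSON (SD, n = 3 each). Of these *PPP1CB* was called higher (0.19, edgeR adjusted p 0.00600), a direction that turned with library size alone (-0.011) and under cyclic loess (-0.086). *PPP1CC* was not called (0.067, adjusted p 0.309), and its sign turned as well (-0.13 and -0.26, the latter with limma adjusted p 0.00163), and *PPP1CA* (-0.074, adjusted p 0.208) was called lower under both (-0.27 and -0.36) and with a mean count of at least 50 (-0.13).

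**Figure D3:**
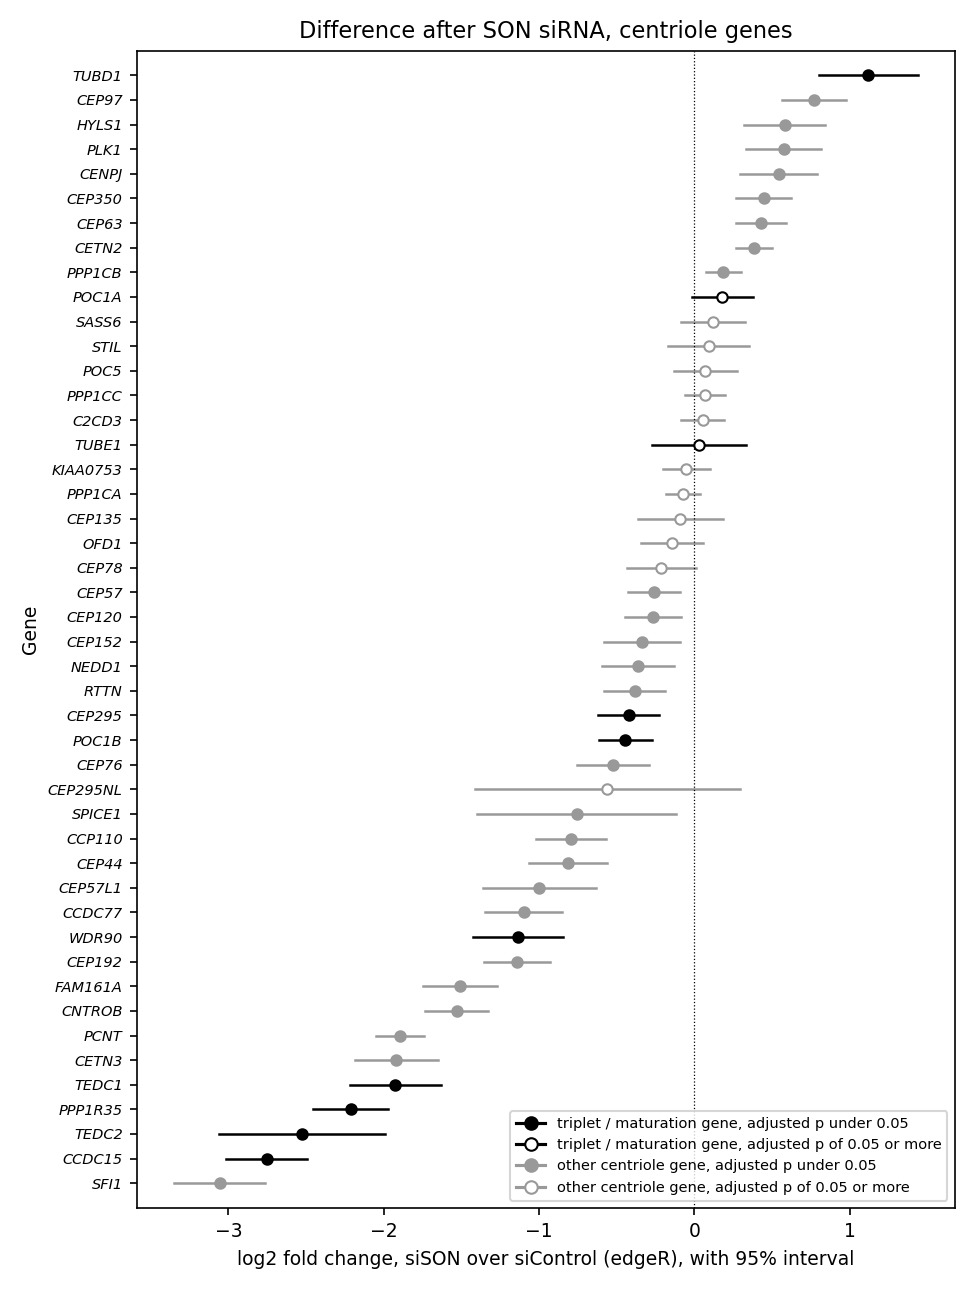
Log2 fold change (siSON over siControl) with its 95% interval from edgeR for the 10 genes (black) and the 36 other centriole genes (grey), sorted by value; filled points have an adjusted p under 0.05. TUBD1 (1.12) is the highest of all 46 genes drawn, and CCDC15, TEDC2, PPP1R35 and TEDC1 lie near the bottom with SFI1 (-3.06) below them.

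The genes of this list and of the 10 whose pattern lay nearest to each tubulin were found by the Euclidean distance of log2 CPM over the 6 libraries, each gene centred on its siControl mean, among 45 candidates. For *TUBD1* they were *CEP97* (distance 0.614) and *HYLS1* (0.848), and for *TUBE1* *KIAA0753* (0.369) and *CEP135* (0.395). Since each gene was centred on its siControl mean, the distance depends largely on the log2 fold change. *TUBD1* had the highest of the genes compared, and *CEP97* (0.77) and *HYLS1* (0.58) had the next highest. The distances are a description over 6 libraries in 2 groups, and shared regulation was not tested.

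Several centriole genes are transcribed with the cell cycle, so 24 cycle genes were read beside them. Of these 19 were called changed, 4 higher and 15 lower, beside 71.7% of all genes (1 higher and 18 lower with library size alone or cyclic loess), with a median log2 fold change of -0.39. Their summed level was 3532, 3743 and 3850 CPM in siControl and 2336, 3021 and 3217 CPM in siSON, lowest in siSON replicate 1. That library was also the lowest of the siSON libraries for 6 of the 10 genes, *TEDC1*, *TEDC2*, *PPP1R35*, *CEP295*, *POC1A* and *POC1B*. The share of all genes tested for which it was the lowest was not computed. Among the siControl libraries replicate 1 was likewise the lowest for the summed level of the cycle genes. It was also the lowest control for *TEDC1*, *TEDC2*, *CCDC15*, *POC1A* and *POC1B*. Falls of more than 2-fold were those of *CCNE2*, a cyclin of S phase entry (23.4 ± 1.88 to 1.06 ± 0.412 CPM, -4.49 on the log2 scale), the E2F factors *E2F2* (-2.46) and *E2F1* (-2.22), and *RRM2* (-1.68) and *TYMS* (-1.57), enzymes of nucleotide synthesis (SD, n = 3 each; edgeR adjusted p 1.86e-08, 1.43e-05, 6.70e-07, 0.000348 and 3.61e-05). These 5 genes were picked after their values were seen, and all were called lower under each of the 15 alternatives. Among the 4 called higher, *BUB1* (0.74, edgeR adjusted p 0.000113) and *AURKB* (0.37, adjusted p 0.00204) had groups that did not overlap. *AURKA* (0.32, adjusted p 0.0267) had overlapping libraries. *PCNA*, the replication clamp, fell from 345 ± 16.6 to 236 ± 11.9 CPM and *MKI67*, a proliferation marker, from 582 ± 15.9 to 435 ± 102 CPM (SD, n = 3 each; edgeR adjusted p 4.82e-06 and 0.0259). The *MKI67* call was lost with DESeq2 (adjusted p 0.0735), with no filter (0.196) and without siControl replicate 2 (0.0571), and without siSON replicate 1 its log2 fold change was -0.23. *TOP2A* was at 578 ± 43.8 and 500.5 ± 63.0 CPM (SD, n = 3 each) and was not called (-0.21, edgeR adjusted p 0.0577), though 9 of 15 alternatives called it lower. *CCNB1* was called higher (log2 fold change 0.18, edgeR adjusted p 0.0448) with overlapping libraries, and that call was lost under 10 of 15 alternatives, its sign turning with library size alone (-0.018) and cyclic loess (-0.041). The part of the cell cycle in the values of the 10 genes was not tested. Without replicate 1 of both groups 7 of the 10 genes were called lower and 1 higher.

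The 10 genes differed in structure, and no test was made of structure against response. In the representative transcript of each, *PPP1R35*, *TEDC2*, *WDR90* and *TEDC1* had median introns of 80, 241, 172.5 and 406 bases and a GC content of 66.0%, 64.1%, 64.9% and 69.2%. These 4 were called lower, with log2 fold changes from -2.53 to -1.14. The median over protein-coding genes tested was 1864 bases for the median intron and 48.9% for GC. *WDR90* had 23 of its 40 introns under 200 bases, and the longest intron of *PPP1R35* has 97 bases. *TUBD1*, with a median intron of 3319 bases and 40.8% GC, *POC1A* (2944.5 bases, 55.6%) and *TUBE1* (1086 bases, 38.8%) were not among the genes that fell. Long introns or low GC were also found among genes that fell. *CCDC15* had the largest fall, with a median intron of 1520 bases, no intron under 200 bases and a GC content of 40.8%. *POC1B* (3903 bases, 38.7%) and *CEP295* (990 bases, 40.3%) were called lower too, with the smallest falls.

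Across the 10 genes the Spearman correlation of the log2 fold change with the median intron length was 0.54 and with GC content -0.43. Over 12699 protein-coding genes with introns and 13003 with a GC value the same correlations were 0.25 and -0.21. These are across genes measured in the same 6 libraries, and no p is given. The classes of genes below are a description, and their bounds were not among the choices planned beforehand. Of the 954 protein-coding genes with a GC content of at least 60% and a median intron under 500 bases, 69.8% were called lower and 16.6% higher, and their median log2 fold change was -1.05. Those with GC under 45% and a median intron of at least 500 bases numbered 4445, of which 29.7% were called lower and 44.4% higher. The first class holds *PPP1R35*, *TEDC1*, *TEDC2* and *WDR90*, and the second *CCDC15*, *CEP295*, *POC1B*, *TUBD1* and *TUBE1*. *POC1A* is in neither.

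**Figure D4:**
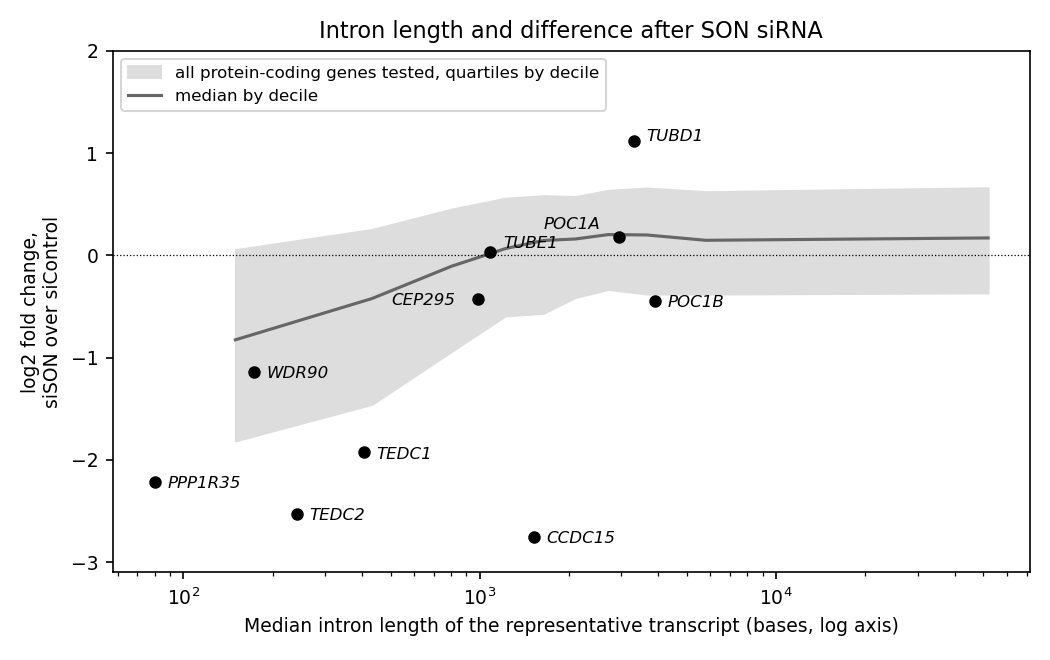
Log2 fold change (siSON over siControl) against the median intron length of the representative transcript (log axis). Black points are the 10 genes, the grey band and line are the quartiles and median of all protein-coding genes tested in 10 classes of intron length. The median of the class with the shortest introns is -0.83; TEDC1, TEDC2, PPP1R35, CCDC15 and, by little, POC1B lie below the quartiles of their class, and TUBD1 lies above them.

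Promoter sequence is shown for *TUBD1*, the gene that rose, and *TEDC2*, which fell, because they were the extremes among partners in 1 complex. The RefSeq table (GRCh38.p14) held promoters for all 10 genes. The stretch printed is the part of the 250 bases before the RefSeq start that lies outside the gene as GENCODE annotates it, 5′ to 3′ on the gene's strand, with motif matches in capitals. For *TUBD1* it is chr17:59892946-59893193 (minus strand) and for *TEDC2* chr16:2459859-2460079 (plus strand).
TUBD1 promoter: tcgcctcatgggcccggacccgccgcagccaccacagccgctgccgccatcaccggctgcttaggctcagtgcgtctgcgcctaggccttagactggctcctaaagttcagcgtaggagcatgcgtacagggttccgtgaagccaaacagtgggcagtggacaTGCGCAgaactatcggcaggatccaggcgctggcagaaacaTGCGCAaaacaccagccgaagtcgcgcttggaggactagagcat
TEDC2 promoter: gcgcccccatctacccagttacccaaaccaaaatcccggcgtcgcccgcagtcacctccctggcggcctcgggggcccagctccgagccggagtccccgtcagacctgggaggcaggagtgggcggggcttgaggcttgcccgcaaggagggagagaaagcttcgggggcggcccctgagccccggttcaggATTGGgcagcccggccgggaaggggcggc

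The motifs searched on both strands in the 250 bases before each RefSeq start were the CCAAT box (CCAAT), the cell cycle homology region (TTTGAA), an E2F-type site (TTCCCGCC) and a half-site of NRF1 (TGCGCA, its own reverse complement). None contains another. They were chosen after the data had been seen. The *TUBD1* window holds TGCGCA at 2 places and none of the other motifs, and it was the single gene of the 10 with that motif, which 6.89% of 35116 promoters hold. The CCAAT box was found in 5 of the 12 windows of the 10 genes, beside 32.0% of all promoters: once in those of *TEDC2*, *CEP295* and *POC1A*, and in 2 of the 3 windows of *TEDC1*, with 1 and 7 matches. The cell cycle homology region was found in *CEP295* alone (13.3% of all promoters) and the E2F-type letters in none of the 10 (2.72%). These are matches of letters, not sites of binding.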

How the data were processed

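Gene-level RNA-seq counts from 3 siControl and 3 siSON libraries were used. The table that the authors deposited holds raw read counts for every gene in each library, as whole numbers. Per the submitters' processing notes, cutadapt 1.16, STAR 2.5.2a, featureCounts 1.6.2, DESeq2 1.28.1 and hg38 were used. The annotation release, strand setting and treatment of multi-mapping reads are not given in the sources used here, and amino acid sequences were not used here. All 58735 identifiers matched GENCODE release 29, which gave positions, introns, GC content and overlaps. Representative transcripts were APPRIS principal, then the longest coding sequence.

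Counts were analysed with edgeR 4.0.16 in R 4.3.3: filterByExpr (minimum count 10), TMM factors and quasi-likelihood tests (robust, siRNA group as the only term), with Benjamini-Hochberg adjustment over all genes tested. The script was tested on simulated data. CPM used TMM-scaled library sizes, on which 3 counts equal 0.0402 to 0.0590 CPM, covering counting error only. Ratios added 0.5 to each count and were compared with an exact permutation test in scipy 1.17.1. SE is the absolute log2 fold change over the square root of F. Genes were named by role, and otherwise as the 3 largest rises and falls called in the wider list. With them came 4 cycle genes and the 2 nearest patterns for each tubulin. Cycle genes beyond those 4 were named after their values were seen. Members and lists were chosen with earlier results of these data known. Alternatives used DESeq2 1.42.0, limma 3.58.1, other scalings and filters, the replicate block and omission of replicates.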

Additional observations from a re-analysis of the deposited data

How the results depend on the processing

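The gene tests were recomputed with DESeq2, limma-voom, RLE factors, library size alone, cyclic loess, no filter, a mean count of at least 50, the replicate number as a block, without each replicate in turn, and, chosen after seeing the data, without replicate 1 of both groups. Over these 15 alternatives 7 of the 10 genes were called lower each time. The number called higher was 1, but 2 with the replicate block (*POC1A*, 0.18, adjusted p 0.0163) and 1 to 2 without single replicates. All genes called ranged from 10226 to 12604, the 10 genes called from 8 to 9, the wider list from 23 to 28 and the cycle genes from 16 to 20. The median shift in log2 fold change was -0.20 with library size alone and 0.14 with cyclic loess.

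Values that changed sign were *TUBE1* with library size alone (-0.17), a mean count of at least 50 (-0.025), without siControl replicate 2 (-0.030), without siSON replicate 1 (-0.087) and without replicate 1 of both groups (-0.13), *POC1A* with library size alone (-0.018), *CETN2* under cyclic loess (-0.035), *POC5* with library size alone (-0.13), *CEP135* under cyclic loess (0.12) and without siSON replicate 3 (0.014), *CEP295NL* under cyclic loess (0.068), and *PPP1CB* (-0.011 and -0.086), *PPP1CC* (-0.13 and -0.26) and *CCNB1* (-0.018 and -0.041) with library size alone and cyclic loess. Leaving out single replicates gave -0.087 to 0.165 for *TUBE1* and -0.186 to 0.014 for *CEP135*. *CEP295NL* had no value at a mean count of at least 50. The cause was not tested. Same-numbered libraries had correlations of deviations of 0.194, 0.0461 and 0.118, each above those of differently numbered libraries (-0.138 to 0.0286). The rule used asked all same-numbered correlations to pass a fixed bound, and that of replicate 2 (0.0461) did not. The numbers were therefore not treated as pairs in the main test, but whether they mark pairs was not settled. With the replicate block 12313 genes were called, against 11888 without it. The exact permutation test of paired signs gave p = 0.25 for all 3 ratios, the smallest it can give. Of the 10 genes *TEDC2* had the lowest count, 58 counts in siSON replicate 1.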
